A study of Mus musculus with 8 samples.

Results

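The insulin and insulin-like growth factor (IGF) signalling genes described here were 10 genes chosen by name: the ligand *Igf1*, the receptors *Insr* and *Igf1r*, the adaptors *Irs1* and *Irs2*, and the IGF-binding protein genes *Igfbp1*, *Igfbp3*, *Igfbp4*, *Igfbp5*, and *Igfbp7*. All 10 were found among the 55367 genes of the count table, and all 10 passed the filter on low counts and were tested. They were measured by RNA-Seq in whole kidneys of C57BL/6J mice that the labels give as postnatal 8 weeks, 4 c-MafΔTAM mice (labelled Maf conditional KO) and 4 c-Maf fl/fl mice (labelled Maf flox/flox, called control mice below), and each library is called 1 mouse here. Both genotypes carried the floxed *c-Maf* allele and received tamoxifen (TAM). In the paper, TAM was injected daily from 8 weeks of age. The paper places the decrease of transporter genes in its RNA-Seq at 10 days after TAM. The c-MafΔTAM mice also carried CAG-Cre-ERTM, a TAM-activated Cre recombinase driven by the CAG promoter, which is active in most tissues, so that the deletion was not limited to the kidney. The controls carried no Cre.

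Insulin binds the insulin receptor, and IGF-1 binds the IGF-1 receptor. Both receptors are tyrosine kinases that phosphorylate the adaptors IRS1 and IRS2, which pass the signal to PI3K, AKT, and mTOR. Most circulating IGF-1 comes from the liver under the control of growth hormone. Secreted IGF-binding proteins hold IGFs in the circulation and in tissue, and they set how much ligand reaches the receptor. In the kidney, the proximal tubule responds to insulin and makes glucose, and tubules, glomeruli, and blood vessels express different binding proteins.

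Of the 10 genes, *Igfbp4* was lower in c-MafΔTAM mice, at 0.492 times its level in control mice (95% CI 0.423 to 0.573, n = 4 in each genotype). The other 9 genes, which include the ligand, both receptors, and both adaptors, did not pass the test. Genes were called when edgeR's quasi-likelihood test gave a *P* under 0.05 after Benjamini-Hochberg adjustment over all genes tested. By this rule, 0 of the 10 genes were higher and 1 was lower, where 0.586% of the 20149 genes tested were higher and 1.58% were lower. At an unadjusted *P* under 0.05, 0 genes were higher and 2 were lower (*Igfbp4* and *Igfbp3*), where 6.58% and 7.44% of all genes tested were. edgeR's exact test, DESeq2, and limma-trend on quantile-normalized values each also called 0 higher and 1 lower. Over all genes, the exact test called 252 higher and 424 lower of 20149, and DESeq2 called 286 and 556 of 28541. For limma-trend these counts were 141 and 267 of 20149. The levels of the genotypes did not overlap for 1 of the 10 genes, against 9.79% of all genes tested. The median log2 fold change was -0.10 over the 10 genes and 0.0027 over all genes tested, with 3 of the 10 above 0 and 7 below it. Levels are given as CPM, the count of a gene scaled to a common library size by the TMM method, and fold changes are c-MafΔTAM relative to control mice.

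**Figure D1:**
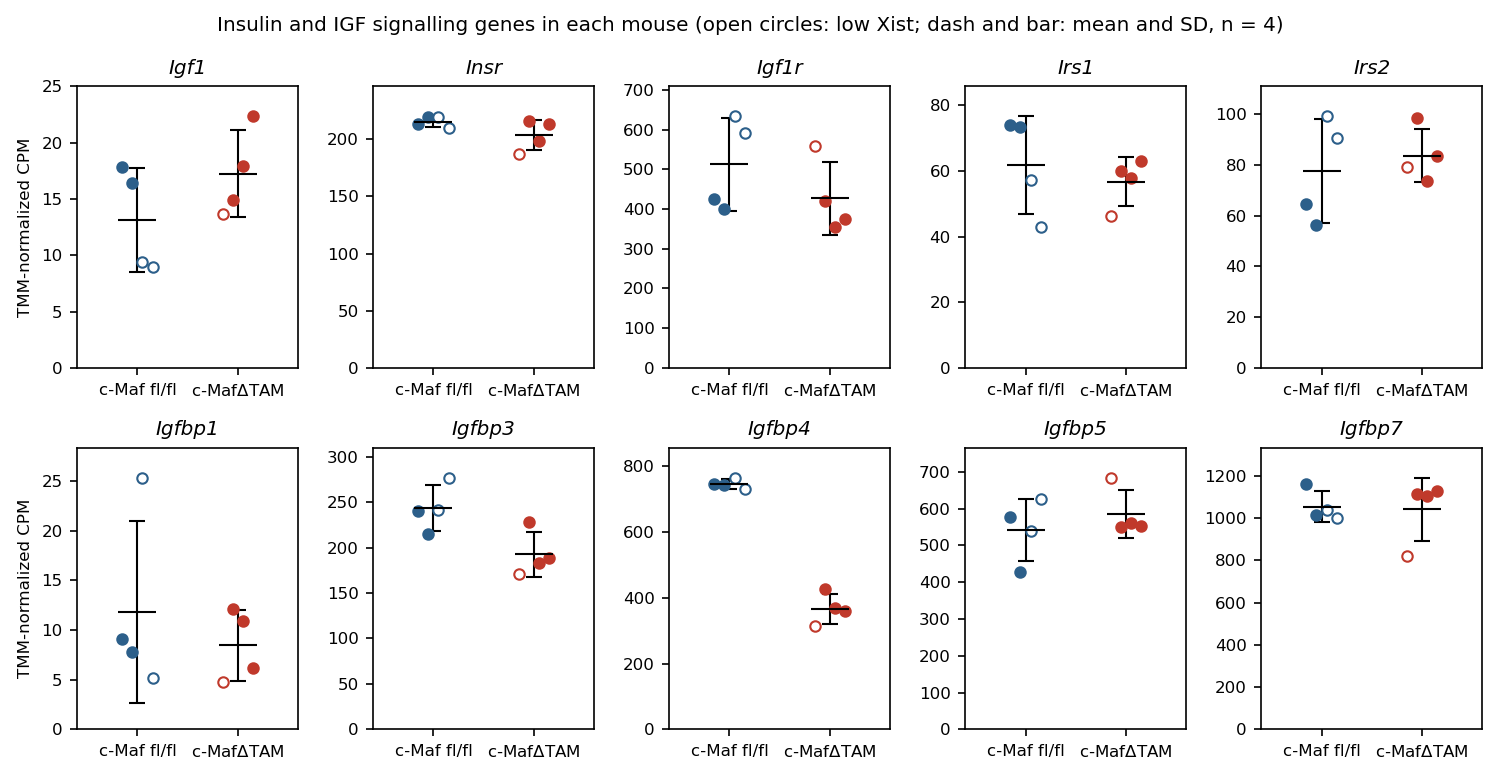
Each panel plots the TMM-normalized CPM (vertical axis, from 0) of 1 gene in the 4 control (c-Maf fl/fl) mice (blue) and the 4 c-MafΔTAM mice (red). Each circle is 1 mouse, open circles are the 3 mice with low Xist, the dash is the mean, and the bar is the SD. The 4 c-MafΔTAM mice lie between 314.7 and 424.8 CPM for Igfbp4, below all control mice (728.5 to 764.0 CPM), and the genotypes overlap in the other 9 panels.

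The libraries held 16649129 to 22990257 counts. *Maf*, the targeted gene, was at 9.06 to 34.5 CPM in c-MafΔTAM mice and 305.4 to 379.9 CPM in control mice. One protocol label names the liver as the source of the RNA. In the counts, of the 6 hepatocyte markers, *Ahsg* was at 0 in all 8 mice, *Cps1* had 0 to 2 counts, and *Apoa1* had 0 to 32 counts. The others had more, with 0.661 to 8.85 CPM for *Alb*, 1.27 to 14.5 CPM for *Serpina1a*, and 434.5 to 709.7 CPM for *Apob*. The kidney transcripts *Umod* and *Slc34a1* were at 1648 to 3196 and 1481 to 4532 CPM. *Xist*, which is transcribed from the inactive X chromosome, had 2 to 22 counts in c-MafΔTAM mouse 1 and control mice 3 and 4 and 17618 to 22387 counts in the other 5 mice. The labels used here give no sexes. Mitochondrial genes took 17.1% to 25.5% of the counts in 7 mice and 32.3% in c-MafΔTAM mouse 1.

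*Igfbp4* lies on chromosome 11 (GRCm38, 99041244 to 99054392, plus strand). It encodes IGFBP-4, a secreted protein that mostly inhibits IGF action and releases IGF when it is cleaved by the protease PAPP-A. In c-MafΔTAM mice 1 to 4, *Igfbp4* was at 314.7, 424.8, 369.0, and 358.3 CPM, from 6185 to 8273 counts per mouse. In control mice 1 to 4, it was at 746.2, 743.2, 764.0, and 728.5 CPM, from 12423 to 16464 counts. The control mice lay close together, the c-MafΔTAM mice were more spread, and the 2 sets of values did not overlap. The means were 366.7 ± 45.3 CPM (SD, n = 4) and 745.5 ± 14.6 CPM (SD, n = 4), a log2 fold change of -1.02 (SE 0.10, 95% CI -1.24 to -0.80, adjusted *P* = 0.00019 by edgeR's quasi-likelihood test). Because whole kidneys were measured, fewer cells that express *Igfbp4* and less *Igfbp4* RNA per cell cannot be told apart.

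By its *P* value *Igfbp4* ranked 36 of 20149 genes. It was also among the abundant transcripts of the table. In control mice, 81 genes had a mean CPM at least as high, *Igfbp4* included, of which 11 were called lower and 5 had a lower log2 fold change. No exon of another gene overlapped its exons. Of the 36-base sequences in its transcripts, 4.57% also occur in transcripts of other genes, and the part of these in the counts was not tested. The call did not rest on 1 mouse: with each mouse left out in turn, the log2 fold change was between -1.10 and -0.95. The value was -0.96 within the 5 mice with high *Xist* (adjusted *P* = 1.14e-05 by edgeR's quasi-likelihood test).

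The promoter of *Igfbp4* is shown because this gene changed, and that of *Igfbp1* because it is a classical insulin-repressed gene of liver and kidney. Each is the 250 bases before the transcription start in RefSeq for GRCm38.p6, at chr11:99040994-99041243 for *Igfbp4* and chr11:7197537-7197786 for *Igfbp1*, both on the plus strand and written 5′ to 3′. Capitals mark TATAAA, the letters of a TATA box, in *Igfbp4*. In *Igfbp1*, they mark TGCTGAC, the flank and core letters of the Maf recognition element, and CAAAACA, the core letters of the insulin response element that FOXO factors bind.
Igfbp4: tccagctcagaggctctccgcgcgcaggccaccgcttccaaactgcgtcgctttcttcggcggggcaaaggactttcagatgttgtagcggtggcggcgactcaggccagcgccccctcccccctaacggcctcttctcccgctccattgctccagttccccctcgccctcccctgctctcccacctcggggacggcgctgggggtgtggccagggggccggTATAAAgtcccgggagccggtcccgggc
Igfbp1: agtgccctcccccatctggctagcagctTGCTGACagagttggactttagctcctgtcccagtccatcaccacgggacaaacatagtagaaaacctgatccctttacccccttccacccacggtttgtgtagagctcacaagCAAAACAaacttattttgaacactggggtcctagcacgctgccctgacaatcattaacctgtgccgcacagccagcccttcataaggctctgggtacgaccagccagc

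The *Igfbp4* stretch was GC rich, with 69.2% G or C, against 53.2% in *Igfbp1* and a median of 52.4% over 32851 mouse promoters. Motifs were searched on both strands in windows of 250 bases before to 50 bases after the start, which were found for 9 of the 10 genes (all but *Insr*). TGCTGAC was found in 4.67% of all promoters and in 2 of the 9, in *Igfbp1* (first base at -222 from the start) and *Igfbp7* (-192). CAAAACA was found in 6.28% of all promoters and in 3 of the 9. In *Igfbp1* it began at -108, in *Irs2* at -37, and in *Irs1* at -111 and -32. TATAAA was found in 13.6% of all promoters and in 1 of the 9, *Igfbp4*, at -28. The AP-1 letters TGACTCA (5.2% of all promoters), which share TGAC with the Maf letters, the FOXO letters GTAAACA (3.65%), and the STAT5 letters TTCNNNGAA (8.3%) were in none of the 9 windows. A match is only a match of letters in these windows.

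The other binding protein genes differ in where their proteins act. *Igfbp3* encodes the main carrier of circulating IGF-1, in a complex with the acid-labile subunit. Its levels were 171.4, 228.3, 183.1, and 188.0 CPM in c-MafΔTAM mice and 240.0, 214.9, 241.0, and 276.8 CPM in control mice. c-MafΔTAM mouse 2 was above control mouse 2, and otherwise the c-MafΔTAM mice were the lower ones. Its log2 fold change was -0.34 (SE 0.11, 95% CI -0.58 to -0.09) and did not pass the correction (adjusted *P* = 0.183 by edgeR's quasi-likelihood test). Over the 19 alternatives, it was between -0.43 and -0.19 and was never called.

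*Igfbp1*, which lies 3539 bases from *Igfbp3* on chromosome 11, encodes a binding protein that is repressed by insulin and rises in fasting. It was at 4.73, 12.1, 10.9, and 6.17 CPM in c-MafΔTAM mice and 9.07, 7.76, 25.3, and 5.16 CPM in control mice. Relative to its mean it was the most variable of the 10 genes within both genotypes, and control mouse 3 had the highest value. The log2 fold change of -0.48 (95% CI -1.79 to 0.82, adjusted *P* = 0.769 by edgeR's quasi-likelihood test) became 0.21 without that mouse, so that these data give no direction for *Igfbp1*.

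*Igfbp5* encodes a binding protein that adheres to the extracellular matrix. It was at 683.7, 550.0, 559.6, and 551.9 CPM in c-MafΔTAM mice and 576.6, 427.3, 537.6, and 626.5 CPM in control mice. c-MafΔTAM mouse 1 stood above the other 3 of its genotype, which lay within the control range. Between genotypes, it differed by 0.11 on the log2 scale (95% CI -0.16 to 0.39, adjusted *P* = 0.754 by edgeR's quasi-likelihood test), 0.03 without that mouse and 0.01 without control mouse 2.

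*Igfbp7* encodes a protein with low affinity for IGFs that is abundant in blood vessel walls and is released by stressed tubules. Its levels were 818.4, 1113, 1106, and 1130 CPM in c-MafΔTAM mice and 1160, 1017, 1039, and 999.8 CPM in control mice. Again c-MafΔTAM mouse 1 stood apart, here below all other mice. Its log2 fold change was -0.02 (95% CI -0.27 to 0.24, adjusted *P* = 0.970 by edgeR's quasi-likelihood test) and 0.09 without that mouse, and the interval corresponds to a level between 0.83 and 1.18 times that of control mice. Of the exonic bases of *Igfbp7*, 7.03% are shared with *Polr2b*, and reads there were not counted.

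**Figure D2:**
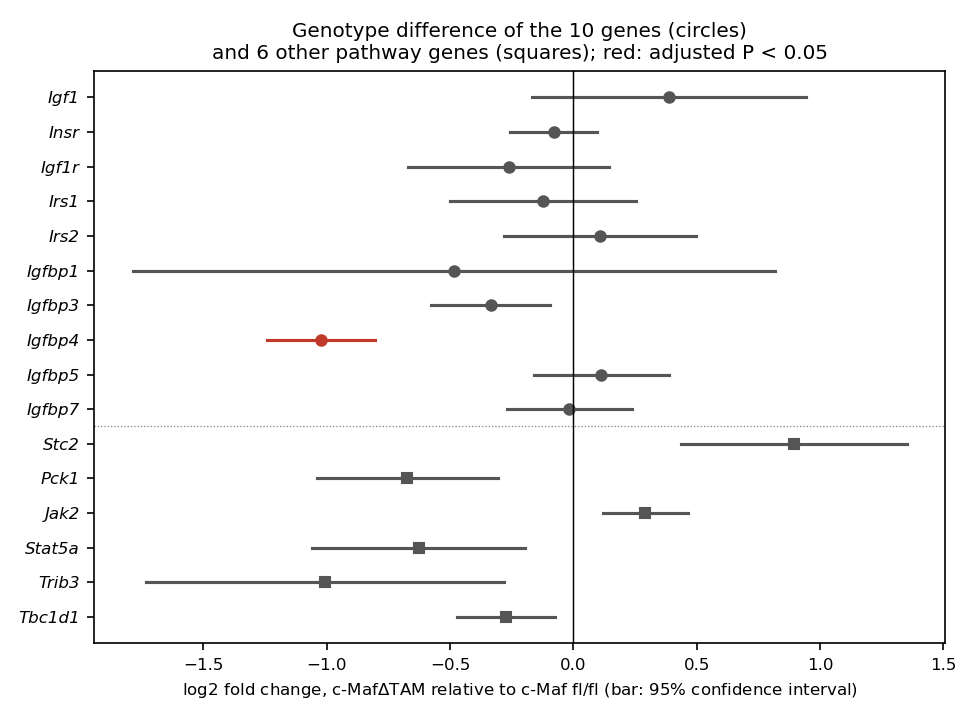
The horizontal axis gives the log2 fold change of c-MafΔTAM relative to control (c-Maf fl/fl) mice, with circles for the 10 genes, squares for the 6 other pathway genes with the smallest P, and bars for the 95% confidence interval (n = 4 in each genotype). Igfbp4 (red, -1.02) is the one gene with an adjusted P under 0.05 by edgeR's quasi-likelihood test, and the interval of Igfbp1 (-1.79 to 0.82) is the widest.

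*Igf1*, the ligand, was a minor transcript, from 153 to 413 counts per mouse. It was at 13.7, 14.9, 17.97, and 22.4 CPM in c-MafΔTAM mice and 17.8, 16.4, 9.39, and 8.97 CPM in control mice. The values split the control mice into a pair within the c-MafΔTAM range and a pair below it, and the lower pair are the mice with low *Xist*. The log2 fold change was 0.39 (SE 0.25, 95% CI -0.17 to 0.94, adjusted *P* = 0.546 by edgeR's quasi-likelihood test) in all mice and 0.11 (adjusted *P* = 0.834 by the same edgeR test) in the 5 mice with high *Xist*.

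*Insr*, the insulin receptor gene, had the smallest SE of the 10. It was at 187.0, 215.6, 198.7, and 212.8 CPM in c-MafΔTAM mice and 213.1, 218.9, 219.4, and 209.4 CPM in control mice. The ranges overlapped, and the log2 fold change was -0.08 (SE 0.08, 95% CI -0.26 to 0.09, adjusted *P* = 0.721 by edgeR's quasi-likelihood test). This interval corresponds to a level of 0.837 to 1.07 times that of control mice.

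*Igf1r*, the IGF-1 receptor gene, was at 559.7, 419.1, 355.4, and 374.3 CPM in c-MafΔTAM mice and 425.7, 399.0, 633.5, and 591.7 CPM in control mice. The 3 mice with low *Xist* had the 3 highest values, whatever their genotype. The log2 fold change was -0.26 (SE 0.18, 95% CI -0.67 to 0.14, adjusted *P* = 0.581 by edgeR's quasi-likelihood test). It was -0.42 without c-MafΔTAM mouse 1, -0.14 without control mouse 3, and -0.11 among the 5 mice with high *Xist*.

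The adaptor genes did not pass the test either. *Irs1* was at 46.2, 59.9, 57.7, and 63.1 CPM in c-MafΔTAM mice and 73.9, 73.3, 57.1, and 42.8 CPM in control mice. The c-MafΔTAM mice lay within the range of the control mice, and the log2 fold change was -0.12 (SE 0.17, 95% CI -0.50 to 0.25, adjusted *P* = 0.807 by edgeR's quasi-likelihood test). Leaving out 1 mouse moved it between -0.03 (without control mouse 1) and -0.26 (without control mouse 4). Among the 5 mice with high *Xist*, the 3 c-MafΔTAM mice (57.7 to 63.1 CPM) were below both control mice (73.3 and 73.9 CPM), at -0.29 (SE 0.08), which did not pass the threshold (adjusted *P* = 0.0767 by the same edgeR test). Of its exonic bases, 30.9% are shared with the annotated gene *Gm9747*, so that reads from these bases are missing from its counts in every mouse. *Irs2* was at 79.3, 98.3, 73.8, and 83.5 CPM in c-MafΔTAM mice and 64.6, 56.4, 99.2, and 90.7 CPM in control mice. Here too the c-MafΔTAM mice lay within the range of the control mice, with a log2 fold change of 0.11 (SE 0.18, 95% CI -0.28 to 0.50, adjusted *P* = 0.841 by edgeR's quasi-likelihood test).

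Among the 5 mice with high *Xist*, the 3 c-MafΔTAM mice (73.8 to 98.3 CPM) were above both control mice (56.4 and 64.6 CPM) for *Irs2*, with a log2 fold change of 0.49 (SE 0.12, adjusted *P* = 0.0341 by edgeR's quasi-likelihood test). In that comparison 1 of the 10 genes was called higher and 1 lower (*Igfbp4*), where 1.53% and 2.22% of the 21027 genes tested were. The deleted gene *Maf* was itself not called there (log2 fold change -3.87, adjusted *P* = 0.108 by the same test). Over all mice it was called (-4.05, adjusted *P* = 0.0115 by the same test). Among the mice with low *Xist*, the order of *Irs2* was the other way, with 79.3 CPM in the c-MafΔTAM mouse and 99.2 and 90.7 CPM in the control mice, and with 1 c-MafΔTAM mouse this was not tested.

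Across both genotypes, 3 of the 10 genes did not overlap between the mice with low and high *Xist*, where 14.3% of all genes tested did not. *Igf1* was at 8.97 to 13.7 CPM in mice with low and 14.9 to 22.4 CPM in mice with high *Xist*. *Irs1* was at 42.8 to 57.1 and 57.7 to 73.9 CPM. *Igf1r* went the other way, at 559.7 to 633.5 CPM with low and 355.4 to 425.7 CPM with high *Xist*. The mice with low *Xist* are 1 of 4 c-MafΔTAM and 2 of 4 control mice, so that the genotype comparison of these 3 genes includes this difference in makeup.

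Per kb of exon, which allows genes to be set side by side, the mean level over all mice was highest for *Igfbp7* (867 CPM per kb), followed by *Igfbp4* (126), *Igfbp5* (93.9), *Igfbp3* (69.6), *Igf1r* (28.0), *Insr* (15.2), *Irs2* (12.8), *Igfbp1* (6.66), *Irs1* (6.48), and *Igf1* (1.53). The ranges over the 8 mice were apart for *Igfbp7* and *Igfbp4*, for *Igfbp3* and *Igf1r*, for *Igf1r* and *Insr*, and for *Irs1* and *Igf1*, and they overlapped for the other neighbours in this order. For *Irs1*, the length includes the shared bases in which reads were not counted. Per kb of exon not shared with another gene, a scale added after the values were seen, it was at 9.37 CPM per kb, above *Igfbp1*, and *Irs2* was at 13.1. Within the order, *Igfbp4* changed its place with genotype. It was at 169 ± 3.30 CPM per kb in control mice against 90.2 ± 14.1 for *Igfbp5*, and at 83.0 ± 10.3 against 97.6 ± 10.8 in c-MafΔTAM mice (SD, n = 4). The ratio of *Igfbp4* to *Igfbp5* per kb was 0.626 to 1.05 in c-MafΔTAM mice and 1.58 to 2.37 in control mice. It was not planned and contains the called gene, so that it is not a separate result. The ratio of *Irs2* to *Irs1* (1.85 to 2.48 and 1.11 to 3.06, or 1.31 to 1.76 and 0.789 to 2.17 on unshared exon) and that of *Igf1r* to *Insr* (1.44 to 2.45 and 1.49 to 2.36) overlapped between genotypes.

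Summed per kb over *Igfbp1* to *Igfbp7*, IGF-binding protein transcripts were at 924.8 to 1190 CPM per kb in c-MafΔTAM mice and 1156 to 1318 in control mice. *Igfbp7* took 73.2% to 79.0% of this in c-MafΔTAM mice and 69.5% to 72.8% in control mice. Without *Igfbp7*, the sum was 252 ± 11.8 CPM per kb in c-MafΔTAM mice and 349 ± 22.8 in control mice (SD, n = 4), with no overlap (243.3 to 269.6 and 315.0 to 362.2). This sum was not planned and includes the called gene *Igfbp4*, so that its lack of overlap is not a separate result. Of this sum, *Igfbp4* made up 28.7% to 35.7% in c-MafΔTAM mice and 45.6% to 53.4% in control mice. When *Igfbp4* was left out as well, the sums overlapped, at 159.7 to 176.6 and 146.7 to 197.2 CPM per kb.

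**Figure D3:**
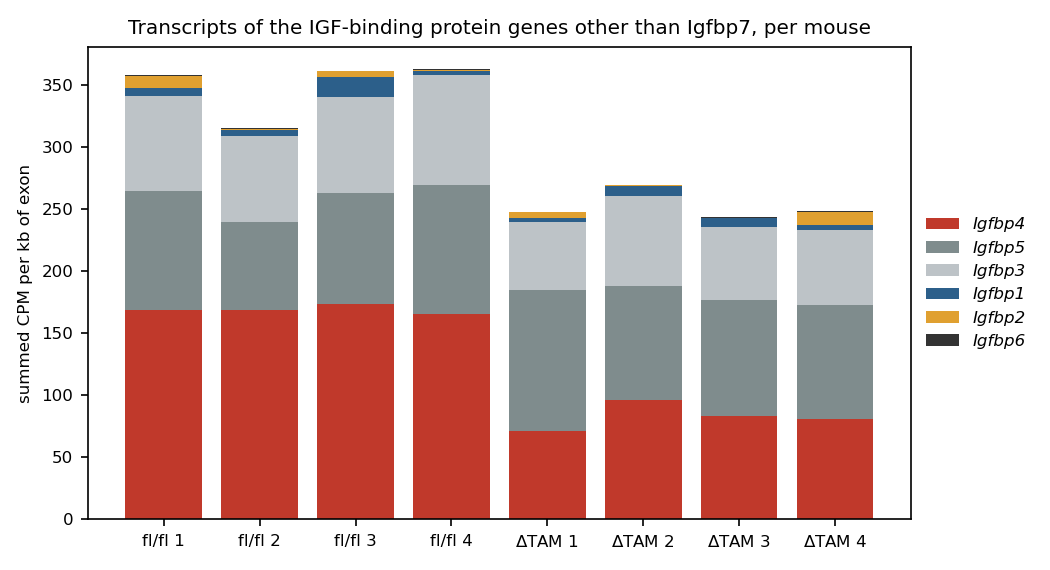
Each bar is 1 mouse (fl/fl for controls and ΔTAM for c-MafΔTAM mice), and its height is the summed level of Igfbp1 to Igfbp6 in CPM per kb of exon, with a colour for each gene (Igfbp7 is left out). The red part, Igfbp4, takes 28.7% to 35.7% of the bar in c-MafΔTAM mice and 45.6% to 53.4% in control mice.

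Beside *Igfbp4*, 1 of 11 lists of cell type markers differed without overlap. The summed level of 7 proximal tubule markers was 1371 to 1590 CPM per kb in c-MafΔTAM mice and 1876 to 2251 in control mice. Of the 7, 0 were called higher and 1 lower, the phosphate transporter gene *Slc34a1* (log2 fold change -1.23, adjusted *P* = 0.000217 by edgeR's quasi-likelihood test). Over all 7, the median log2 fold change was -0.204. Without *Slc34a1*, left out after its values were seen, the other 6 summed to 996.8 to 1168 and 1127 to 1283 CPM per kb, which overlapped. These 6 were kept because none was called, whereas the endothelial list below kept its called gene. Relative to these 6, *Igfbp4* was at 0.0715 to 0.0824 in c-MafΔTAM mice and 0.129 to 0.150 in control mice. The 7 endothelial markers, of which 1 was called lower (*Kdr*, log2 fold change -0.37, adjusted *P* = 0.0450 by edgeR's quasi-likelihood test), summed to 113.9 to 142.7 and 132.5 to 152.2 CPM per kb. Relative to them, *Igfbp4* was at 0.569 to 0.712 and 1.13 to 1.27. In the other 9 lists (thick ascending limb, distal convoluted tubule, collecting duct, podocyte, mural and smooth muscle, fibroblast, macrophage, lymphocyte, and hepatocyte), 0 genes were called by this test and the sums overlapped.

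The 3 genes most like *Igfbp4* over the 8 mice, by the root mean square distance of z-scored log2 CPM among 9749 genes with at least 10 CPM on average, were *Slc4a4* (distance 0.108), *Rcan1* (0.113), and *Cela1* (0.124). *Slc4a4*, the basolateral bicarbonate cotransporter gene of the proximal tubule, was at 738 ± 52.3 CPM in c-MafΔTAM and 1466 ± 36.3 CPM in control mice. *Rcan1*, which encodes an inhibitor of calcineurin, was at 22.7 ± 4.78 and 67.9 ± 4.74 CPM. *Cela1*, which encodes an elastase, was at 3.99 ± 1.92 and 39.2 ± 2.09 CPM (SD, n = 4). The z-scores were taken over both genotypes together, so that the distance mainly picks genes with a similar genotype difference. It gives no separate evidence that these genes vary with *Igfbp4* within a genotype.

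The rest of the pathway was examined over 76 further genes listed by role, from insulin and IGF-2 through adaptors, PI3K, AKT, mTOR, MAPK, and FOXO factors to insulin-responsive targets and the growth hormone axis. Of these, 72 were tested. By edgeR's quasi-likelihood test 0 were higher and 0 were lower, with 3 and 6 at an unadjusted *P* under 0.05 (6.58% and 7.44% over all genes tested). edgeR's exact test called 1 higher and 1 lower, DESeq2 called 1 and 2, and limma-trend called 1 and 0. Over all genes, these tests called 252 and 424 of 20149, 286 and 556 of 28541, and 141 and 267 of 20149. The genotypes did not overlap for 3 higher and 6 lower genes of the 72, where 4.17% and 5.62% of all genes tested were higher and lower without overlap, so that these counts were near the background. The median log2 fold change was -0.06. In the mTOR arm (10 tested), the MAPK arm (6), the adaptors (8), the FOXO factors (3), and the other ligands (3), receptors (2), and binding proteins (3), 0 genes had an unadjusted *P* under 0.05 in the edgeR test or separate ranges. The AKT arm held 1 higher and 3 lower of 11 with separate ranges, the growth hormone axis 1 and 1 of 6, PI3K and phosphatases 0 and 1 of 10, insulin-responsive targets 0 and 1 of 5, and the proteases of binding proteins with their inhibitors 1 and 0 of 5. With so few genes in a role, nothing is read from these counts against the shares over all genes.

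The 6 genes with the smallest *P* in this list all missed the threshold. *Stc2* encodes stanniocalcin-2, an inhibitor of the protease that cleaves IGFBP-4. It was at 9.46, 15.5, 18.02, and 13.1 CPM in c-MafΔTAM mice and 8.44, 7.58, 8.73, and 5.34 CPM in control mice, with no overlap. On the log2 scale the difference was 0.89 (SE 0.21, 95% CI 0.44 to 1.35, adjusted *P* = 0.0527 by edgeR's quasi-likelihood test). It was past the threshold in 8 of 19 alternatives, among them the fit without c-MafΔTAM mouse 1 (1.04, adjusted *P* = 0.0101 by edgeR's quasi-likelihood test), over a range of adjusted *P* from 0.00339 to 0.177. *Pappa*, the gene of the protease itself, named after its values were seen, was at 18.9, 23.2, 23.0, and 26.4 CPM in c-MafΔTAM and 24.5, 26.3, 18.5, and 15.1 CPM in control mice (log2 fold change 0.11, 95% CI -0.26 to 0.49, adjusted *P* = 0.825 by edgeR's quasi-likelihood test).

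*Pck1* encodes phosphoenolpyruvate carboxykinase, a gluconeogenic enzyme whose gene insulin represses. It was at 1206, 1938, 1996, and 1841 CPM in c-MafΔTAM mice and 2571, 2472, 3478, and 2608 CPM in control mice, with no overlap. The log2 fold change was -0.67 (SE 0.17, 95% CI -1.04 to -0.31, adjusted *P* = 0.0680 by edgeR's quasi-likelihood test), and it was past the threshold in 3 of 19 alternatives, over a range of adjusted *P* from 0.00537 to 0.363. The fold change among the 5 mice with high *Xist* was smaller, at -0.39 on the log2 scale (adjusted *P* = 0.0217 by edgeR's quasi-likelihood test).

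Of the other 4, *Jak2*, the kinase of the growth hormone receptor, was at 56.8 to 66.2 CPM in c-MafΔTAM and 48.0 to 53.2 CPM in control mice (log2 fold change 0.29, adjusted *P* = 0.0913 by edgeR's quasi-likelihood test). *Stat5a*, a transcription factor that JAK2 activates, was at 20.5 to 28.1 and 29.97 to 54.0 CPM (log2 fold change -0.63, adjusted *P* = 0.167 by the same test). *Trib3*, a pseudokinase that binds AKT, was at 0.487 to 0.719 and 0.762 to 1.57 CPM (log2 fold change -1.01, adjusted *P* = 0.183 by the same test). *Tbc1d1*, an AKT substrate that acts on glucose transporter traffic, was at 105.8 to 131.9 and 137.5 to 151.2 CPM (log2 fold change -0.27, adjusted *P* = 0.187 by the same test). For all 4, the ranges of the genotypes were apart. *Jak2* was past the threshold in 2 of 19 alternatives, with upper-quartile factors (adjusted *P* = 0.0491 by edgeR's quasi-likelihood test) and with *Xist* as a covariate (0.0375), and *Stat5a* also in 2 of 19, by DESeq2 (adjusted *P* = 0.0493) and with *Xist* as a covariate in edgeR (0.0435). The log2 fold change of *Stat5a* was -0.44 without control mouse 3 and -0.28 (adjusted *P* = 0.339 by edgeR's quasi-likelihood test) among the 5 mice with high *Xist*. Over the 19 alternatives the adjusted *P* of *Jak2* by these tools reached 0.285 and that of *Stat5a* 0.421.

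**Figure D4:**
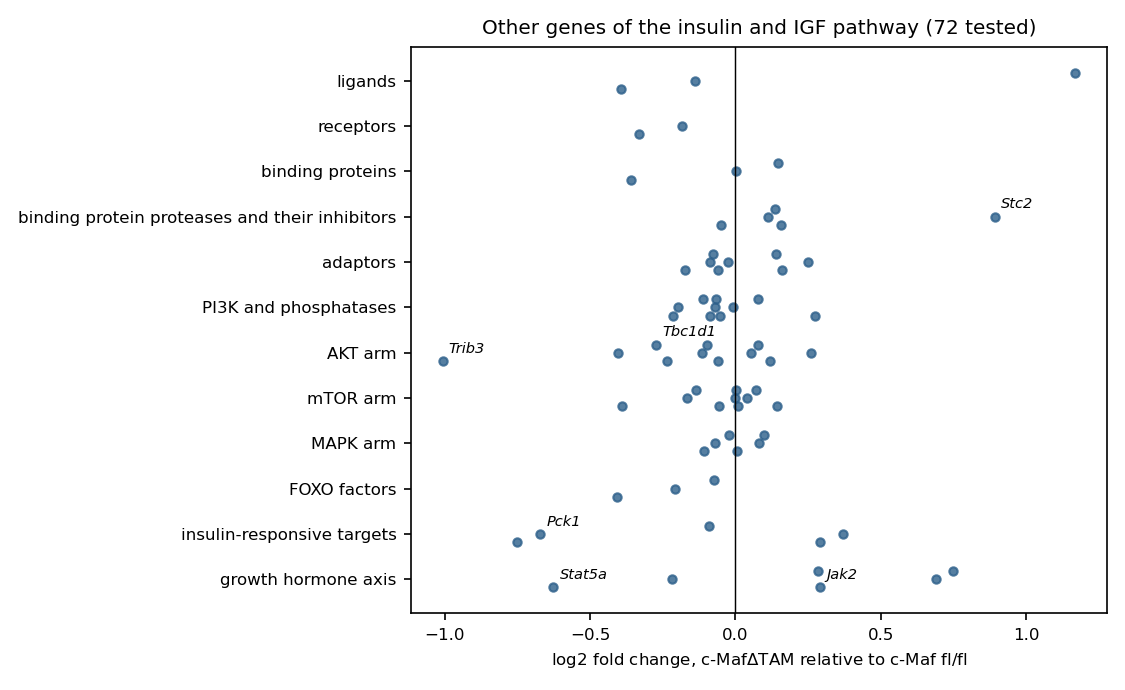
Each point is 1 of the 72 tested pathway genes, placed by its role (vertical axis) and its log2 fold change of c-MafΔTAM relative to control (c-Maf fl/fl) mice (horizontal axis). The 6 genes with the smallest P are named, from Trib3 (-1.01) to Stc2 (0.89), and none of the 72 had an adjusted P under 0.05 by edgeR's quasi-likelihood test.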

How the data were processed

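The authors deposited raw counts, whole numbers of reads per gene name that featureCounts 2.0.1 assigned to exons of Ensembl release 102 (GRCm38), per the file headers. Each read of a pair was counted without regard to strand, and reads that touched several genes were left out. The aligner is not given in the sources used here, and the submitters' processing notes also list Subread 2.0.2 and edgeR 3.36.0. The libraries were directional and depleted of rRNA, with paired reads of 36 bases. The paper's own values came from CLC Genomics Workbench, which was not repeated. The paper counts more upregulated than downregulated genes, whereas more genes were lower than higher in the fit reported here. The reason for this difference was not tested.

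Genes were kept by filterByExpr (20149 of 55367), scaled by TMM (factors from 0.857 to 1.11), and compared over 4 and 4 mice with edgeR's robust quasi-likelihood test (R 4.3.3, edgeR 4.0.16, limma 3.58.1), without covariates, at a Benjamini-Hochberg adjusted P under 0.05 over all genes tested. SE is the absolute log2 fold change over the square root of F, and intervals use the test's degrees of freedom. The biological coefficient of variation was 0.203. CPM per kb uses the exon length in the deposited table. The labels number the libraries of a genotype as replicates and do not say whether each is 1 animal, so that P values measure the spread between these libraries. All pairs of 1 genotype differed beyond the sampling noise of their counts.

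The 10 genes and the other lists were chosen with earlier results of these data known. By rule, the text names Maf and Xist, the 10 genes, the 6 pathway genes with the smallest P (called genes first), and the 3 genes nearest to each called member. Outside this rule it names cell type markers and further pathway genes. The latter (Pappa, Ghr, Socs2, Cish, Igfbp2, G6pc, Pdk4, Ppargc1a, Ins1, and Ins2) were named after their values were seen. Islet and pancreas genes were chosen after the values were seen. Alternatives were other tests (edgeR's exact test, DESeq2 1.42.0, limma-trend after quantile normalization), other factors (upper-quartile, RLE), other filters (at least 1 count in any or 10 in every mouse), a block by replicate number, Xist as a covariate, the 5 mice with high Xist (at least 1000 counts), removal of mitochondrial and ribosomal RNA genes, and each mouse left out. Scripts were tested on simulated data. Promoters came from RefSeq (GRCm38.p6). Figures used matplotlib 3.10.9 in Python 3.11.15. Other measurements of the study were not analysed here.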

Additional observations from a re-analysis of the deposited data

Results flagged for a closer look

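In 3 of 40 groups of 4 mice examined (1 gene in 1 genotype each), 1 mouse stood apart from the other 3 by Dixon's criterion, where chance alone gives about 1 in 20. *Igfbp5* was at 683.7 CPM in c-MafΔTAM mouse 1 and 550.0 to 559.6 CPM in the other 3 c-MafΔTAM mice, a gap of 0.928 of the whole range. *Igfbp7* was at 818.4 CPM in the same mouse and 1106 to 1130 CPM in the other 3, a gap of 0.923 of the range. This mouse also had the highest mitochondrial share of counts (32.3%) and low *Xist*, and the part of these in its *Igfbp5* and *Igfbp7* levels was not tested. *Pck1* was at 3478 CPM in control mouse 3 and 2472 to 2608 CPM in the other 3 control mice, a gap of 0.865 of the range.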

How the results depend on the processing

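*Igfbp4* was lower and past the threshold in all 19 alternatives, with a log2 fold change of -1.10 to -0.93 and an adjusted P of 4.08e-19 to 0.0168. Values that changed sign, none of them past the threshold, were *Igfbp1* (0.21 in the mice with high *Xist* and -0.72 to 0.21 with a mouse left out, positive without control replicate 3), *Igfbp7* (0.026 with upper-quartile factors, 0.16 with quantile normalization, 0.035 with high *Xist*, and -0.059 to 0.085 with a mouse left out, positive without c-MafΔTAM replicate 1 or control replicate 1), *Insr* (0.0051 with quantile normalization), and *Irs2* (-0.019 to 0.25 with a mouse left out, negative without control replicate 2). The number of the 10 genes called higher was 1 with high *Xist* (*Irs2*) and 0 otherwise. Pathway genes called higher, 0 in the reported fit, were 2 with upper-quartile factors, 1 each with quantile normalization, edgeR's exact test, DESeq2, and at least 1 count in any mouse, 3 with *Xist* as a covariate (*Stc2*, *Jak2*, *Ghr*), 3 in the mice with high *Xist* (*Stc2*, *Socs2*, *Cish*), and 0 to 1 with a mouse left out. Pathway genes called lower, also 0, were 1 with the exact test, 2 with DESeq2, 2 with *Xist* as a covariate, and 1 with high *Xist*. The cause of these changes was not tested.

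Over all genes, 118 were higher and 318 lower in the reported fit, 252 and 424 by the exact test, 286 and 556 by DESeq2, 561 and 880 with *Xist* as a covariate, 322 and 467 with high *Xist*, 152 and 266 with upper-quartile factors, 191 and 409 with at least 1 count in any mouse, and 51 to 142 and 188 to 310 with a mouse left out (lowest without c-MafΔTAM replicate 3). The replicate numbers did not pair the mice, since the deviations of same-numbered mice correlated at -0.373, 0.152, -0.11, and -0.331. With the replicate block, 18 genes were higher and 111 lower, *Igfbp4* was at -1.03 (adjusted P = 0.0168 by edgeR's quasi-likelihood test), and the calls over the 10 genes and the pathway list were as without it. Among the 6 pathway genes with the smallest *P*, counts were lowest for *Trib3* (9 to 32 per mouse). Among the 10 genes they were lowest for *Igfbp1* (88 to 499) and *Igf1* (153 to 413). Other tested pathway genes had fewer, such as *Igf2* (2 to 79) and *Igfbp6* (8 to 22).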

Other observations

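The following genes were chosen after their values were seen, and no test was run on the patterns across single mice. The insulin genes had counts in every kidney library. *Ins1* was at 8.39, 22.8, 2.99, and 1.62 CPM in c-MafΔTAM mice 1 to 4 and 3.04, 2.80, 10.6, and 31.3 CPM in control mice 1 to 4. *Ins2* was at 8.45, 33.5, 4.49, and 2.60 CPM and at 3.78, 2.30, 14.7, and 33.9 CPM. Both genes were highest in c-MafΔTAM mouse 2 and control mouse 4, and both varied more within a genotype than between the means of the genotypes. Other islet hormone genes were high in the same libraries. *Iapp* had 111 counts in c-MafΔTAM mouse 2 and 74 in control mouse 4, against 7 to 30 in the others, and *Gcg* had 86 and 55 counts, against 5 to 33. The counts of 4 islet genes (*Iapp*, *Gcg*, *Sst*, *Ppy*) summed to 16 to 210 per mouse, and those of 7 exocrine pancreas genes to 2 to 13. The source of these reads was not tested.

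Control mouse 3 had the highest level of 3 genes that insulin represses, with 25.3 CPM of *Igfbp1*, 711 CPM of *G6pc*, and 3478 CPM of *Pck1*. *Pdk4*, a fasting-induced gene, was also higher in this mouse (41.9 CPM) than in the other 3 control mice (20.8 to 28.6 CPM), and it was highest of all in c-MafΔTAM mouse 4 (70.5 CPM). *Ppargc1a* was at 130.2 CPM in control mouse 3, within the range of the other mice (120.0 to 141.7 CPM). The same mouse had the lowest level of 2 targets of growth hormone signalling, with 7.56 CPM of *Socs2* and 11.9 CPM of *Cish*, against 20.9 to 63.3 and 27.7 to 59.5 CPM in the other mice. Over all 8 mice neither gene was called (log2 fold change 0.75 for *Socs2*, adjusted P = 0.640, and 0.69 for *Cish*, adjusted P = 0.470, by edgeR's quasi-likelihood test). Among the 5 mice with high *Xist*, which leave out this mouse and the other 2 with low *Xist*, the same test called both higher in c-MafΔTAM mice (0.93, adjusted P = 0.000726, and 0.78, adjusted P = 0.0119). With *Xist* as a covariate over all mice, neither was called (adjusted P = 0.545 and 0.506 in edgeR). *Igfbp2* varied about as widely within both genotypes, from 0.976 to 19.4 CPM in c-MafΔTAM and from 0.997 to 17.7 CPM in control mice. The feeding state of the mice is not given in the labels.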
